A study of Mus musculus with 18 samples.

Results

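The genes described here are 36 transcripts typical of natural killer (NK) cells and T cells, followed through RNA sequencing of sorted mouse splenic dendritic cells of the conventional type (cDC). They were taken by symbol from a given list: 9 NK receptors, 4 adhesion and activating receptors, 6 effector molecules and chemokines, 3 transcription factors, 3 cytokine and homing receptors, 5 components of the T cell receptor (TCR) complex and 6 TCR signalling proteins. Deposited values were found for all 36, among 24614 gene sums, and all 36 were among the 13381 genes tested. There were 6 groups of 3 libraries each: ADAM10-deficient (KO) and wild-type (WT) CD4-CD8- cDC2, KO and WT CD4+ cDC2, and KO and WT CD8+ cDC1. All 18 libraries came from C57BL/6 spleens, after enrichment on CD11c and sorting of living CD11c+MHCII+ cells into the 3 populations. The labels give neither the way ADAM10 was deleted, nor the age of the mice, nor whether the libraries of a group came from separate animals, so the p-values below rest on library-to-library spread alone, some of which could be technical.

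NK cells are innate lymphocytes that kill target cells with perforin and granzymes. In the mouse they read target cells through lectin-like receptors (Klr and Klra genes, most of them inside the NK gene complex) and through Ncr1 (NKp46). T cells recognise antigen through a TCR whose signal passes through the CD3 chains, Cd247 and the kinases Lck and Zap70, and NK cells use Cd247 and some CD3 chains too. Splenic cDC1 carry CD8 alpha, and cDC2 fall into CD4+ and CD4-CD8- cells. ADAM10 sheds many cell-surface proteins and takes part in Notch receptor activation.

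Promoter sequence is shown for 6 genes that illustrate the patterns below. Ncr1, Gzma and Klrc1 were found mainly in WT CD4-CD8- libraries. Klra4 and Klra8 are near relatives that varied together. Klrk1 lies close to Klrc1 and had another pattern. Each line gives the 250 bases before the gene's start, 5′ to 3′ on the strand of the gene, from RefSeq on GRCm38.p6, with every RUNX (TGTGGT), T-box (GGTGTG) or ETS (GGAAGT) core, read on both strands, in capitals.
Ncr1 (chr7:4337474-4337723, plus strand): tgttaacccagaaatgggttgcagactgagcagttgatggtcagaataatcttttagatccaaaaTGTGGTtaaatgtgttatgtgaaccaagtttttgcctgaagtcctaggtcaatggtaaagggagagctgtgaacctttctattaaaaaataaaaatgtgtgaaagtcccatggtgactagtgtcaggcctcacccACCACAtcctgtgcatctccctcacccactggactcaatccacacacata
Gzma (chr13:113100982-113101231, minus strand): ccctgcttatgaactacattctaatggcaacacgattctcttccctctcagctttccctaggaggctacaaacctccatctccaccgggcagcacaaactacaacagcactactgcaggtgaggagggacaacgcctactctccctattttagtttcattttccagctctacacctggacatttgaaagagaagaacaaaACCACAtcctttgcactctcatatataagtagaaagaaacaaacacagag
Klrc1 (chr6:129678974-129679223, minus strand): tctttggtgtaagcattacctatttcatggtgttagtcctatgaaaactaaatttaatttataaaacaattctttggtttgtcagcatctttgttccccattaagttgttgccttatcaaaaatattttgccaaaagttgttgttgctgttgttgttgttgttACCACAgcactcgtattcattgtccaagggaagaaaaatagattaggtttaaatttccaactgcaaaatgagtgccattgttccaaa
Klrk1 (chr6:129623865-129624114, minus strand): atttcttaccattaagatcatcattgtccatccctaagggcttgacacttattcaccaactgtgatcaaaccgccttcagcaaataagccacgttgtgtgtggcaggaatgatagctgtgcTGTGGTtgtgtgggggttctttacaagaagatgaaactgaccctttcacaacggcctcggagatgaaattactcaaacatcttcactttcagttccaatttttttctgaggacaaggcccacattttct
Klra4 (chr6:130067272-130067521, minus strand): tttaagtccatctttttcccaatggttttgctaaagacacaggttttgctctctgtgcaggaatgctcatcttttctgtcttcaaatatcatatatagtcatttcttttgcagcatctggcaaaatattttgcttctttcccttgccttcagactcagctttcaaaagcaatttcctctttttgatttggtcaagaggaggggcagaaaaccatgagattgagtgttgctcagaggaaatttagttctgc
Klra8 (chr6:130129899-130130148, minus strand): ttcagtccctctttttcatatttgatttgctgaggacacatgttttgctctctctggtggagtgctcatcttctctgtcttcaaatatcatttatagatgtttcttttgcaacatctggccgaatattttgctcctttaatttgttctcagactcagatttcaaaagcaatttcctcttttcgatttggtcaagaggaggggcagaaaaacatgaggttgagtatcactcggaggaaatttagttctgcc
The capitals mark RUNX cores in the first 4 sequences, and the Klra4 and Klra8 windows hold none of the 3 motifs. The Klra4 and Klra8 windows were identical at 85.1% of their aligned bases. RefSeq windows were matched for 28 of the 36 genes, not for Cd226, Ccl5, Klrd1, Cd2, Crtam, Trdc, Skap1 and Il2rb. A RUNX core was present in at least 1 window of 15 of these 28 genes, an ETS core in 13 and a T-box core in 6. Some genes have more than 1 window. By window, the counts were 16, 15 and 7 of 36, beside 14.0%, 19.7% and 16.3% of all 32841 mouse windows for RUNX, ETS and T-box. A match describes letters and is not a binding site, and the RUNX core is found in Klrk1 as well as in Klrc1, whose levels across the groups differed.

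Totals ran between 12358884 and 19557469 estimated counts per library. In every population the KO libraries held less Adam10 RNA, at 5.27 to 6.42 TPM in KO against 13.6 to 23.2 TPM in WT CD4-CD8- cells, 5.78 to 6.69 TPM in KO against 10.7 to 18.2 TPM in WT CD4+ cells and 3.19 to 4.64 TPM in KO against 7.83 to 13.5 TPM in WT CD8+ cells. TPM, a transcript abundance scaled to the same total in every library, are corrected for transcript length, so they allow genes to be compared. For scale, the 36 genes together held 525 to 664 TPM in KO and 1240 to 1970 TPM in WT CD4-CD8- libraries. In the same population 18 genes typical of cDC held 28300 to 30900 TPM in KO and 19500 to 23600 TPM in WT libraries. These sums do not show which cells made the transcripts.

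**Figure D1:**
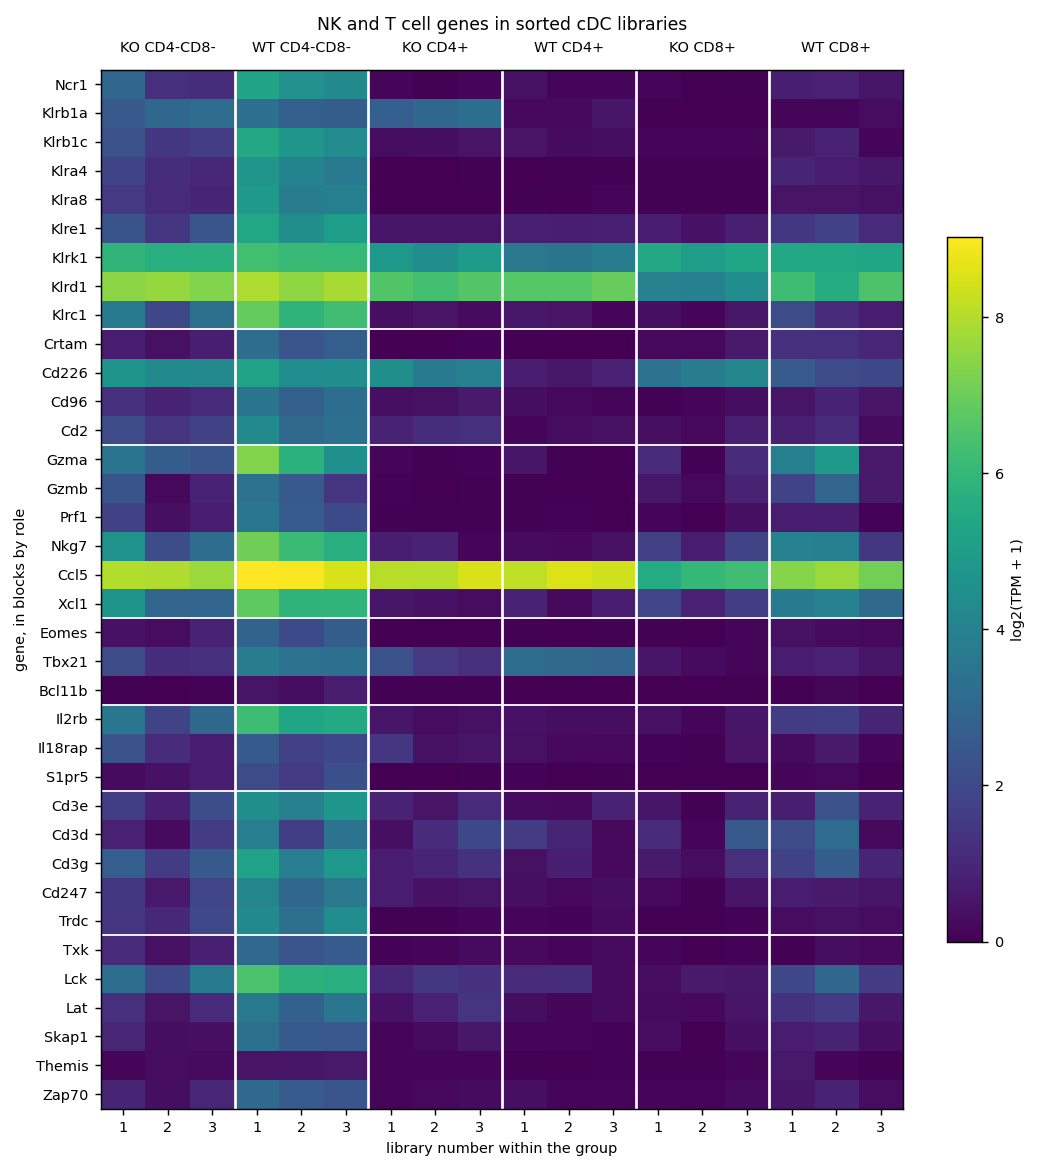
Level of the 36 genes (rows, in blocks by role) in the 18 libraries (columns, 3 per group), as log2(TPM + 1). Most rows are bright in WT CD4-CD8- libraries and weaker in KO CD4-CD8- libraries, and many are dark elsewhere. Klrk1, Klrd1, Ccl5, Cd226, Klrb1a and Tbx21 are bright in further groups. Some rows also had signal in WT CD8+ libraries, with up to 14.9 TPM for Xcl1, 28.0 TPM for Gzma and 15.0 TPM for Nkg7.

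The genes fell into a large set found mainly in WT CD4-CD8- cells and a small set that stood apart. As a description, the mean TPM of the 6 groups were added for each gene and the share of WT CD4-CD8- cells was taken, for which equal levels would give 16.7%. For 26 genes this share was 70.9% to 91.3%, with Klra8 highest. The next highest group mean of these genes was that of KO CD4-CD8- cells, except for Gzma, Crtam, Bcl11b, Lat and Skap1. In these exceptions it was that of WT CD8+ cells. For the other 10 it was 29.2% to 49.8%: Klrk1, Ccl5, Klrb1a, Cd226, Klrd1, Themis, Tbx21, Cd3d, Gzmb and Il18rap. No gene lay between 49.8% and 70.9%. The sums that follow describe the 26 genes and are no test, since a high share by itself means low levels in the other groups. The 26 genes added up to 133, 40.0 and 80.4 TPM in KO CD4-CD8- libraries, against 1040, 525 and 545 TPM in WT CD4-CD8- libraries. They reached 7.62 to 11.1 TPM in KO and 5.26 to 7.20 TPM in WT CD4+ libraries, and 3.72 to 14.1 TPM in KO and 21.5 to 90.4 TPM in WT CD8+ libraries. All 36 genes reached the low-count filter, 0.672 CPM (the library's counts scaled to one common total), in at least 3 libraries outside the WT CD4-CD8- group.

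**Figure D2:**
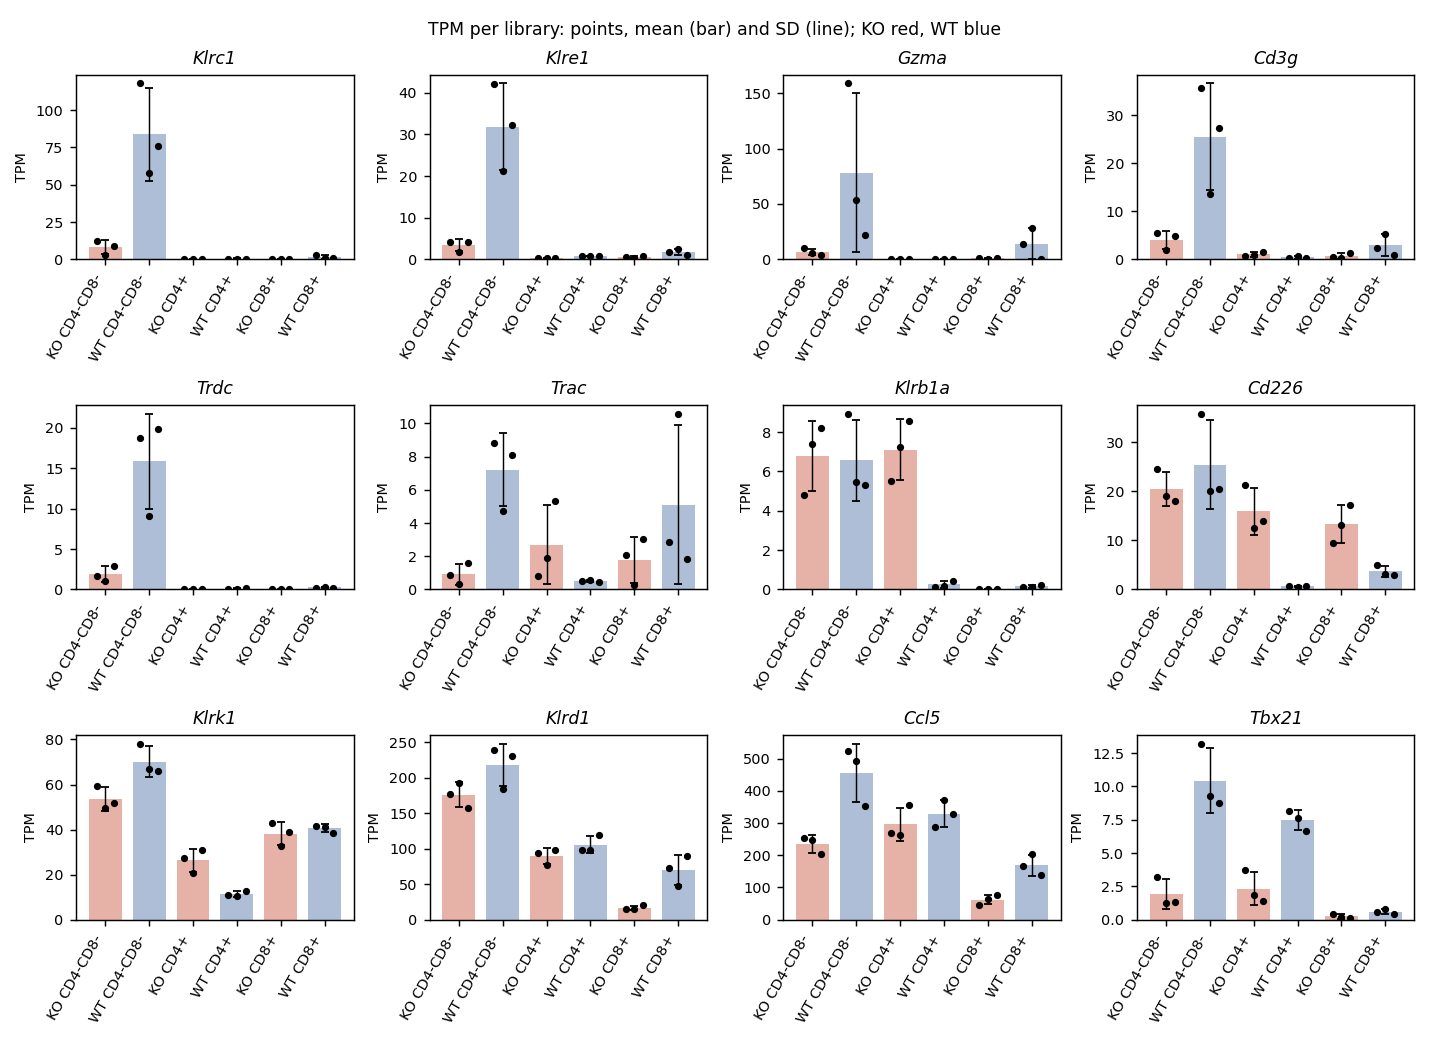
TPM of 12 genes in each library (points), with the group mean (bar) and SD (line), n = 3 per group, KO in red and WT in blue. Klrc1, Klre1, Cd3g and Trdc were highest in the 3 WT CD4-CD8- libraries, Gzma was so on average but reached 28.0 TPM in a WT CD8+ library, Trac also reached 10.6 TPM in a WT CD8+ library, and Klrb1a and Cd226 in KO CD4+ libraries overlapped the KO CD4-CD8- libraries.

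The comparison of KO with WT CD4-CD8- cDC2 asked what ADAM10 deficiency changes in this population. Of the 36 genes, 0 rose, 30 fell and 6 did not pass (adjusted p under 0.05, edgeR quasi-likelihood test), with a median log2 fold change of -2.58, against 0.02 over all tested genes. Among all tested genes 14.6% rose and 11.3% fell (25.9% in either direction). Because the samples are bulk RNA, fewer cells of a type and less RNA per cell cannot be told apart. Whether the transcripts came from cDC or from other cells within the gate was not tested.

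NK receptors split in this comparison. Klra8, an activating receptor of the Ly49 family (Ly49H), was at 1.81, 1.16 and 0.928 TPM in KO CD4-CD8- libraries, against 27.8, 13.2 and 13.9 TPM in WT. The groups were far apart, with a log2 fold change of -3.56 ± 0.37 (SE, n = 3 per group), adjusted p = 7.46e-06. Klra4, another activating Ly49 receptor (Ly49D), was at 2.62, 1.25 and 1.00 TPM in KO, against 24.9, 15.7 and 11.5 TPM in WT (log2 -3.17 ± 0.37, adjusted p = 1.19e-05). Klre1, a lectin-like receptor that pairs with Klri1 or Klri2, was at 4.14, 1.67 and 4.16 TPM in KO, against 42.0, 21.1 and 32.3 TPM in WT (log2 -3.09 ± 0.32, adjusted p = 3.68e-06). Klrb1c (NK1.1) was at 3.74, 1.71 and 2.10 TPM in KO, against 42.4, 26.2 and 19.6 TPM in WT (log2 -3.15 ± 0.42). Klrc1 (NKG2A), the inhibitory partner of Klrd1, was at 12.2, 2.90 and 8.99 TPM in KO, against 118, 57.6 and 75.8 TPM in WT (log2 -3.01 ± 0.43). Ncr1 was at 6.83, 1.33 and 1.29 TPM in KO, against 38.1, 23.0 and 18.3 TPM in WT (log2 -2.80 ± 0.51, adjusted p = 0.000635). In none of these 6 receptors, all of them called, did KO and WT libraries overlap. The share of all tested genes without overlap was not counted, here or in the other populations.

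The other 3 NK receptors were not called. Klrd1 (CD94), the common partner of the NKG2 receptors, was at 177, 193 and 158 TPM in KO CD4-CD8- libraries, against 240.0, 185 and 231 TPM in WT, and the groups overlapped (log2 -0.05 ± 0.16). Klrk1 (NKG2D), an activating receptor for stress ligands, was at 59.5, 49.4 and 51.8 TPM in KO, against 78.1, 66.7 and 65.8 TPM in WT (log2 -0.10 ± 0.14 in the edgeR fit, adjusted p = 0.669). The Klrk1 TPM did not overlap, but TPM were lower in KO over all genes (median -0.21 on the log2(TPM + 1) scale), a shift that the edgeR normalisation removes. Klrb1a, a receptor of the NKR-P1 family, was at 4.79, 7.37 and 8.18 TPM in KO, against 8.94, 5.44 and 5.33 TPM in WT (log2 0.18 ± 0.29, adjusted p = 0.713). Klrd1 was thus well above its NKG2A partner Klrc1 in these cells, most of all in KO libraries.

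Of the 6 effector genes 5 fell, with wide differences between libraries. Gzma (granzyme A) was at 10.1, 5.30 and 4.27 TPM in KO CD4-CD8- libraries, against 159, 53.6 and 22.4 TPM in WT (log2 -3.35 ± 0.86, adjusted p = 0.00824). WT library 1 was the highest of its group for 31 of the 36 genes, among them all 6 effector genes. KO library 2 was the lowest of its group for 25 of the 36. Without WT library 1 the Gzma call was lost (log2 -2.24, adjusted p = 0.0714). Nkg7, a granule membrane protein, was at 23.9, 3.43 and 8.29 TPM in KO, against 133, 70.4 and 50.4 TPM in WT (log2 -2.50 ± 0.62). Xcl1, the chemokine that attracts XCR1-bearing cDC1, was at 24.3, 6.64 and 6.65 TPM in KO, against 111, 57.0 and 59.6 TPM in WT (log2 -2.29 ± 0.46). Prf1 (perforin) was at 2.37, 0.286 and 0.614 TPM in KO, against 10.7, 5.20 and 3.05 TPM in WT (log2 -2.29 ± 0.69, adjusted p = 0.022). The Prf1 call was lost without WT library 1 (adjusted p = 0.154), KO library 2 (0.0812) or KO library 3 (0.0883). Gzmb (granzyme B) was at 4.07, 0.153 and 0.872 TPM in KO, against 9.66, 4.70 and 1.65 TPM in WT, with overlap, and was not called. Ccl5, a chemokine also made by dendritic cells, was at 253, 247 and 204 TPM in KO, against 522, 492 and 353 TPM in WT (log2 -0.69 ± 0.19, adjusted p = 0.0134), a call lost without WT library 1 (0.0661) or KO library 3 (0.0654).

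The genes of the TCR complex and of TCR signalling fell as well. NK cells use some of them too, and which cells held these transcripts was not tested. All 5 components of the TCR complex and all 6 signalling genes were lower in KO than in WT CD4-CD8- cells, with log2 fold changes between -2.83 and -2.40 and between -3.27 and -2.24. The call of Cd3d was lost with limma on log2(TPM + 1) (adjusted p = 0.0624), on log2(TPM + 0.1) (0.129) and on TPM without a filter (0.127). Cd3g was at 5.49, 1.98 and 4.87 TPM in KO, against 35.6, 13.6 and 27.4 TPM in WT. Trdc, the constant region of the TCR delta chain, was at 1.67, 1.01 and 2.95 TPM in KO, against 18.7, 9.09 and 19.8 TPM in WT (log2 -2.83 ± 0.39, adjusted p = 5.32e-05). Lck, the kinase that starts TCR signalling and is used by NK cells too, was at 8.64, 2.94 and 12.0 TPM in KO, against 87.5, 55.4 and 51.1 TPM in WT (log2 -2.68 ± 0.50). Lat, the adaptor that Zap70 phosphorylates, was at 1.30, 0.401 and 1.17 TPM in KO, against 11.7, 6.04 and 10.6 TPM in WT (log2 -2.96 ± 0.50). Skap1, an adhesion adaptor, had a log2 fold change of -3.27 ± 0.63. Themis, a regulator of thymocyte selection, was low throughout (0.115, 0.234 and 0.210 TPM in KO, against 0.392, 0.454 and 0.536 TPM in WT), and its call was lost without WT library 3 (adjusted p = 0.0556) or KO library 1 (0.0602).

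Transcription factors and receptors gave further falls. Eomes, a factor of NK cells and memory T cells, was at 0.345, 0.230 and 0.825 TPM in KO CD4-CD8- libraries, against 6.56, 3.08 and 5.34 TPM in WT (log2 -3.06 ± 0.44, adjusted p = 8.7e-05). Tbx21 (T-bet), a factor of NK and T helper type 1 cells that some cDC2 also make, was at 3.23, 1.25 and 1.31 TPM in KO, against 13.2, 9.31 and 8.75 TPM in WT (log2 -2.07 ± 0.42). Bcl11b, which commits T cells, stayed under 1 TPM in every library and fell by 3.30 ± 0.65 on the log2 scale. Il2rb, the shared chain of the IL-2 and IL-15 receptors, was at 10.8, 2.61 and 7.34 TPM in KO, against 73.9, 39.5 and 45.1 TPM in WT (log2 -2.65 ± 0.41). S1pr5, which guides NK cells out of tissue, fell too (log2 -2.56 ± 0.54). Crtam, an adhesion receptor of activated killer cells, had a log2 fold change of -3.12 ± 0.41, Cd96 one of -2.61 ± 0.37 and Cd2 one of -2.06 ± 0.45. Cd226 (DNAM-1), an activating adhesion receptor, was at 24.5, 19.1 and 18.0 TPM in KO, against 35.9, 20.1 and 20.5 TPM in WT, and was not called. Il18rap, a chain of the IL-18 receptor, was at 3.97, 1.19 and 0.605 TPM in KO, against 4.94, 2.25 and 2.89 TPM in WT, with overlap, and was not called either.

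Most further listed genes of both cell types were also lower in KO in these libraries. The lists were chosen with earlier results of these data known. Their counts, here and in the other populations, are therefore a description and no independent support. Of 22 further NK genes tested, 1 rose, 17 fell and 4 did not pass, and of 19 further T cell genes 0 rose, 14 fell and 5 did not pass. Cd160, an NK and T cell receptor, fell by 3.21 on the log2 scale, Fasl (Fas ligand) by 3.10 and Trat1, a TCR-associated adaptor, by 3.08. The gene that rose was Klrb1b, an inhibitory NKR-P1 receptor, at 85.2, 77.0 and 66.8 TPM in KO, against 53.3, 44.7 and 29.8 TPM in WT (log2 0.97 ± 0.24, adjusted p = 0.00706). Erythroid transcripts summed to 186, 60.3 and 367 TPM in KO, against 124, 71.5 and 146 TPM in WT, and 0 of 5 tested erythroid genes passed. Of 8 monocyte genes 5 rose and 0 fell, with a sum of 502 to 614 TPM in KO and 474 to 512 TPM in WT, and of 9 plasmacytoid dendritic cell (pDC) genes 4 rose and 0 fell (270.0 to 323 TPM in KO and 196 to 231 TPM in WT). Of 11 tested B cell genes 1 rose and 3 fell (101 to 127 TPM in KO and 109 to 147 TPM in WT), and of 7 plasma cell genes 0 rose and 1 fell (7.92 to 11.1 TPM in KO and 15.4 to 24.1 TPM in WT). Of 10 red pulp macrophage genes 2 rose and 1 fell. The part of these cell types in the falls was not tested.

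**Figure D3:**
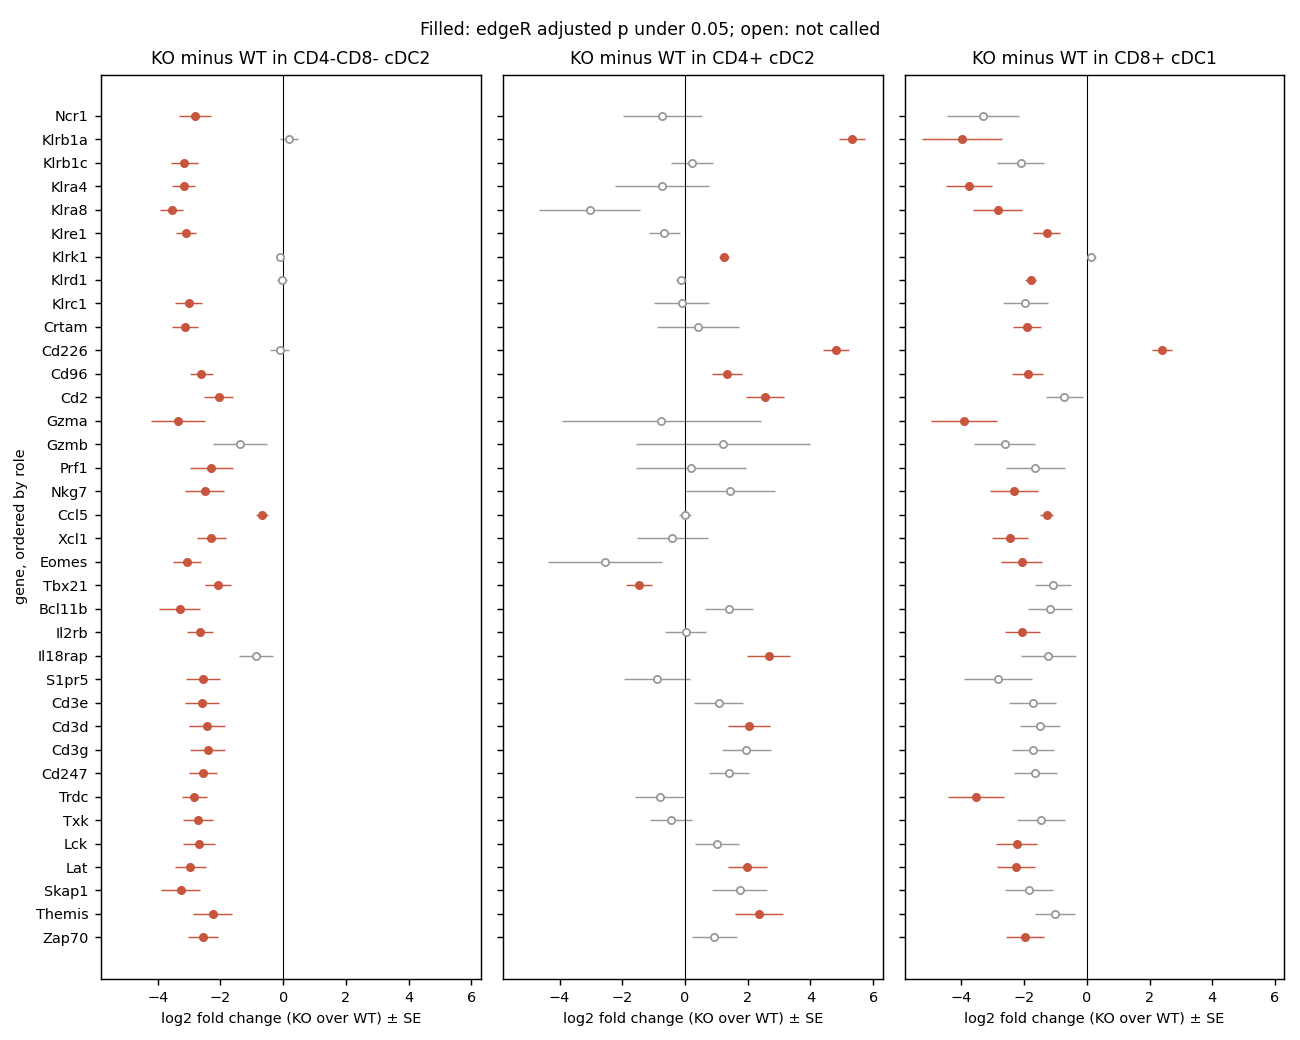
Log2 fold change of KO over WT (x axis) with its standard error for the 36 genes (y axis, ordered by role) in the 3 populations, n = 3 libraries per group. Filled points were called at an adjusted p under 0.05. In CD4-CD8- cells 30 genes lie left of 0 as filled points, in CD4+ cells Klrb1a and Cd226 lie far to the right, and values of genes with few counts in a group, such as Klra8, Eomes and Gzma in CD4+ cells, depend on the prior count of the fit.

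In CD4+ cDC2 fewer of the 36 genes were called between KO and WT than in CD4-CD8- cDC2, and most calls were higher in KO. Of the 36 genes, 9 rose, 1 fell and 26 did not pass, beside 18.5% and 16.6% of all tested genes (35.1% in either direction). The 10 calls in either direction were thus a smaller share than among all tested genes, while the rises were a larger one. Whether these shares differ was not tested, and fewer genes were called in some alternatives. The median log2 fold change was 0.68, or 0.98 without Klra4 and Klra8, which had at most 3 counts in either group, against 0.02 over all tested genes. Both medians still rest partly on genes with few counts. Crtam had 4 counts over the KO and 3 over the WT group, Gzmb 5 and 2, and Prf1 10 and 9. Klrb1a rose most, at 5.50, 7.26 and 8.57 TPM in KO CD4+ libraries, against 0.152, 0.180 and 0.456 TPM in WT (log2 5.33 ± 0.42, adjusted p = 1.78e-07). The KO CD4+ values overlapped those of both CD4-CD8- groups. Of all 59-base stretches in Klrb1a transcripts, 7.17% also occur in other genes, Klrb1b among them. Whether reads of such relatives contributed to the Klrb1a values was not tested. Cd226 was at 21.4, 12.5 and 14.0 TPM in KO, against 0.648, 0.514 and 0.771 TPM in WT (log2 4.81 ± 0.41, adjusted p = 1.22e-07). Klrk1 was at 27.4, 20.7 and 30.9 TPM in KO, against 10.9, 10.5 and 12.9 TPM in WT (log2 1.24 ± 0.15, adjusted p = 5.4e-06). In all 3 genes every KO library was above every WT library, and each call was kept in all alternatives run.

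Several NK genes, picked here for their low values, were at or near 0 in the CD4+ libraries of both genotypes, while others were not. Ncr1 was at 0.0501 to 0.123 TPM in KO and 0.0900 to 0.324 TPM in WT CD4+ libraries. Klra8 was listed at 0 in all 3 KO libraries and had 3 counts over the WT group. Klre1 was at 0.418 to 0.427 TPM in KO and 0.685 to 0.747 TPM in WT libraries, and Gzma had 5 counts over the KO group and 9 over the WT group. Klrd1, in contrast, averaged 89.9 TPM in KO and 106 TPM in WT CD4+ cells. The 9 NK receptors summed to 107 to 138 TPM in KO and 110.0 to 135 TPM in WT CD4+ libraries. Whether NK cells contributed to the rise of Klrb1a, Cd226 and Klrk1 was not tested. Klrb1b, the inhibitory relative of Klrb1a, was also higher, at 79.3, 38.3 and 57.7 TPM in KO, against 6.57, 1.83 and 8.14 TPM in WT (log2 3.71 ± 0.29, adjusted p = 4.03e-08). Klrb1c, the next relative, was at 0.225, 0.257 and 0.395 TPM in KO, against 0.400, 0.205 and 0.276 TPM in WT, with overlap (adjusted p = 0.835).

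The other calls in CD4+ cells concerned genes at low levels. Il18rap was at 1.68, 0.332 and 0.411 TPM in KO CD4+ libraries, against 0.326, 0.157 and 0.170 TPM in WT (log2 2.67 ± 0.69, adjusted p = 0.00584). This call was lost in 4 alternatives: without KO library 1 (0.0561) and in the limma fits on TPM (adjusted p up to 0.545). Cd2, an adhesion molecule of T and NK cells, was at 0.818, 1.29 and 1.38 TPM in KO, against 0.111, 0.227 and 0.318 TPM in WT (log2 2.56 ± 0.61, adjusted p = 0.0032), a call lost with limma on log2(TPM + 1) (adjusted p = 0.0531) and on TPM without a filter (0.108). Themis, Cd3d, Lat and Cd96 rose with log2 fold changes of 2.37, 2.04, 1.99 and 1.34. Cd3d was at 0.287, 1.20 and 2.92 TPM in KO, against 2.04, 0.913 and 0.165 TPM in WT, so its TPM overlapped, and its call was lost when any 1 of the libraries other than KO library 1 was left out (adjusted p between 0.0598 and 0.0932). The calls of Themis, Lat and Cd96 were lost without KO library 3 or WT library 3, and each was lost without other libraries too. Without KO library 3 their adjusted p were 0.0685, 0.0588 and 0.185, and without WT library 3 they were 0.0545, 0.0562 and 0.144. Themis was not called without WT library 1 (0.0856), Lat not without WT library 2 (0.0847) or KO library 2 (0.0706), and Cd96 not without WT library 2 (0.136) or KO library 2 (0.0562). Without KO library 3 or without WT library 3, 6 of the 36 genes were called in place of 10. On TPM, limma called 4 genes (log2(TPM + 1), or no filter) or 6 (log2(TPM + 0.1)). KO library 3 was also the highest of its group for 22 of the 36 genes.

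Tbx21 was the gene of the 36 that fell in KO CD4+ cells, at 3.72, 1.83 and 1.41 TPM, against 8.14, 7.65 and 6.66 TPM in WT (log2 -1.46 ± 0.41, adjusted p = 0.00974). Its call was kept in every alternative run. Of 22 further NK genes, 1 rose (Klrb1b) and 8 fell, among them Fasl (log2 -5.48), Cd7 (log2 -2.93), Il12rb2, a chain of the IL-12 receptor (log2 -2.02), and Cd244a (log2 -1.93). Cd7, an immunoglobulin-type receptor, was at 19.9, 20.6 and 20.6 TPM in KO, against 158, 184 and 185 TPM in WT CD4+ libraries. Of 19 further T cell genes, 4 rose (Trbc1, Cd27, Gata3 and Il7r) and 2 fell (Cd5 and Tcf7). In the same libraries, 4 of 5 tested erythroid genes rose, with a sum of 394, 94.4 and 265 TPM in KO and 72.9, 29.3 and 80.9 TPM in WT. Of 10 red pulp macrophage genes 7 rose and 1 fell, with a sum of 342 to 404 TPM in KO and 281 to 303 TPM in WT. Monocyte genes rose for 5 of 8 (409 to 469 TPM in KO and 349 to 362 TPM in WT), pDC genes for 4 of 9 (239 to 296 TPM in KO and 171 to 203 TPM in WT), and of 11 tested B cell genes 2 rose and 2 fell. The part of these cell types in the rises was not tested.

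In CD8+ cDC1, of the 36 genes 1 rose, 17 fell and 18 did not pass, beside 6.99% and 8.67% of all tested genes (15.7% in either direction). The median log2 fold change was -1.89, or -1.86 with Klrb1a put at the bound that 3 counts over the KO group give, against 0.00 over all tested genes. Cd226 rose, at 9.55, 13.1 and 17.3 TPM in KO CD8+ libraries, against 4.99, 3.23 and 2.88 TPM in WT (log2 2.40 ± 0.33, adjusted p = 8.95e-05). Klrd1 fell, at 15.1, 14.7 and 20.5 TPM in KO, against 73.2, 47.4 and 89.8 TPM in WT (log2 -1.79 ± 0.17, adjusted p = 2.44e-06). Ccl5 was at 46.4, 64.0 and 76.6 TPM in KO, against 167, 203 and 138 TPM in WT (log2 -1.28 ± 0.20, adjusted p = 0.000248). These 3 genes were well above the detection limit, did not overlap between the genotypes and kept their calls in every alternative run. Klrk1 was not called, at 42.9, 32.6 and 39.0 TPM in KO and 41.8, 41.3 and 38.6 TPM in WT (log2 0.14 ± 0.14).

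The remaining 15 falls in CD8+ cells were of genes at low levels in KO. Xcl1 was at 2.68, 0.758 and 2.12 TPM in KO CD8+ libraries, against 11.9, 14.9 and 7.71 TPM in WT (log2 -2.44 ± 0.57, adjusted p = 0.00663), and Crtam was at 0.171, 0.157 and 0.582 TPM in KO, against 1.32, 1.35 and 0.953 TPM in WT (log2 -1.90 ± 0.44). Gzma was at 1.18, 0.0435 and 1.23 TPM in KO, against 14.0, 28.0 and 0.519 TPM in WT, with overlap (log2 -3.91 ± 1.06, adjusted p = 0.0185). Klra4 had 3.1 estimated counts over the KO group and 42.0 over the WT group (adjusted p = 0.00197), and Klra8 had 3.0 and 22.2, so no fold is given for either. Klrb1a was listed at 0 in all 3 KO libraries, with 5.1 counts over the WT group, and its call (adjusted p = 0.0493) was lost whenever any 1 CD8+ library was left out (adjusted p between 0.0653 and 0.117). Lck, Lat, Zap70, Cd96, Il2rb, Eomes, Nkg7, Klre1 and Trdc made up the rest of the falls.

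Single libraries moved the count in CD8+ cells more than in the other populations. WT library 2 was the highest of its group for 26 of the 36 genes and WT library 3 the lowest for 31, while KO library 3 was the highest of its group for 29 and KO library 2 the lowest for 25. Genes called numbered 7 without WT library 2, 10 without WT library 1, 8 without KO library 1 and 6 without KO library 2, in place of 18, while it was 22 at most. With limma on log2(TPM + 1) or on TPM without a filter 6 genes were called, and with the CD8+ groups alone 10. Klrd1, Ccl5, Cd226, Xcl1, Crtam and Klra4 kept their calls in every fit that left out a library. The other 12 genes were all lost without KO library 2, with adjusted p from 0.0511 (Trdc) to 0.166 (Klre1). All of these but Trdc were also lost without WT library 2 (adjusted p between 0.059 for Klra8 and 0.212 for Zap70), 10 without KO library 1 (0.0529 for Lat to 0.121 for Eomes) and 8 without WT library 1 (0.052 for Il2rb to 0.151 for Nkg7). Klra8, Klrb1a, Klre1 and Nkg7 were lost without KO library 3 (0.0654 to 0.101), and Klrb1a without WT library 3 (0.117). Of 22 further NK genes 1 rose (Klrb1b, log2 2.00) and 5 fell, and of 19 further T cell genes 0 rose and 8 fell. Erythroid transcripts summed to 398, 245 and 527 TPM in KO, against 154, 99.4 and 130 TPM in WT CD8+ libraries, and 3 of 5 tested genes rose. Of 9 pDC genes 1 rose and 5 fell, with a sum of 111 to 150.0 TPM in KO and 186 to 241 TPM in WT. Of 8 monocyte genes 0 rose and 2 fell (85.3 to 143 TPM in KO and 152 to 209 TPM in WT), and of 10 red pulp macrophage genes 0 rose and 3 fell (14.5 to 39.4 TPM in KO and 23.0 to 30.1 TPM in WT). Of 11 tested B cell genes 1 rose and 4 fell, with a median log2 of -1.38, while the summed level of the list was 108 to 130 TPM in KO and 107 to 118 TPM in WT. The part of these cell types in the differences was not tested.

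The effects of ADAM10 deficiency were compared between populations with interaction terms, which share groups with each other and with the comparisons above. Between CD4-CD8- and CD4+ cells, 18 of the 36 genes had a lower log2 fold change in CD4-CD8- cells and 0 a higher one, beside 2.48% and 1.28% of all tested genes (3.76% in either direction). Klrb1a (log2 -5.15 ± 0.52, adjusted p = 8.22e-05) and Cd226 (log2 -4.92 ± 0.51, adjusted p = 6.46e-05) had the lowest adjusted p of these. Without WT CD4+ library 2 or KO CD4+ library 3 the count was 11. Between CD4-CD8- and CD8+ cells 1 gene had a higher effect in CD4-CD8- cells and 2 a lower one, beside 8.24% and 4.92% of all tested genes (13.2% in either direction). The gene with the higher effect was Klrd1 (log2 1.74 ± 0.23, adjusted p = 0.000113), and the others were Cd226 (log2 -2.51 ± 0.44) and Klre1 (log2 -1.81 ± 0.54). The Klre1 call was lost without any 1 of 7 libraries: KO CD4-CD8- library 2, WT CD4-CD8- libraries 1 and 3, KO CD8+ libraries 1 and 3 and WT CD8+ libraries 1 and 3 (adjusted p between 0.0525 and 0.0951). This count of 3 depended on the scale: limma called 22 genes on log2(TPM + 1), 19 on TPM without a filter and 6 on log2(TPM + 0.1). Between CD4+ and CD8+ cells 16 genes had a higher effect in CD4+ cells and 0 a lower one, beside 12.6% and 9.54% of all tested genes (22.1% in either direction), and without WT CD8+ library 2 the count was 10, with limma on log2(TPM + 1) 8 and on TPM without a filter 5. Ccl5 was among the 16 (log2 1.28 ± 0.27, adjusted p = 0.00265), at 269, 262 and 355 TPM in KO and 289, 371 and 328 TPM in WT CD4+ libraries. For the 33 genes not called between CD4-CD8- and CD8+ cells, a missed threshold does not show equal effects.

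Among WT cells, the comparison of populations asked where the transcripts were found without a gene deletion. WT CD4-CD8- cells were higher than WT CD4+ cells for 34 of the 36 genes and lower for 0, beside 9.63% and 7.12% of all tested genes (16.7% in either direction), with a median log2 difference of 5.72. Tbx21 and Ccl5 were not called, with Tbx21 at 13.2, 9.31 and 8.75 TPM in WT CD4-CD8- libraries and 8.14, 7.65 and 6.66 TPM in WT CD4+ libraries. Il2rb differed by 6.97 ± 0.55 on the log2 scale and Klrc1 by 7.49 ± 0.59, whereas Klrd1 differed by 0.84 ± 0.16. Klra4, Klra8, Gzmb and Crtam had at most 3 counts over the WT CD4+ group, so no fold is given for them. WT CD4-CD8- cells were higher than WT CD8+ cells for 34 of the 36 genes and lower for 0, beside 21.9% and 21.0% (42.9% in either direction), with a median of 3.64, and Gzmb and Themis were not called. The call of Gzma (log2 2.30 ± 0.81, adjusted p = 0.0307) was lost without WT CD4-CD8- library 1 (0.283), WT CD8+ library 1 (0.0814) or WT CD8+ library 3 (0.056). WT CD4+ cells were higher than WT CD8+ cells for 3 genes and lower for 25, beside 22.6% and 23.0% (45.6% in either direction). The 3 were Tbx21 (log2 3.58 ± 0.47), Ccl5 (log2 0.95 ± 0.19) and Klrd1 (log2 0.66 ± 0.16), whose call was lost with limma on TPM without a filter (adjusted p = 0.0522). In place of 28, that fit called 8 genes and limma on log2(TPM + 1) called 15.

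The order of the levels differed among the genes that stood apart. Klrk1 averaged 53.5 TPM in KO and 70.2 TPM in WT CD4-CD8- cells, 26.3 in KO and 11.5 in WT CD4+ cells, and 38.2 in KO and 40.6 in WT CD8+ cells, so that WT CD4+ cells were lowest. Klrd1 averaged 176 and 219 TPM in KO and WT CD4-CD8- cells, 89.9 and 106 TPM in KO and WT CD4+ cells, and 16.7 and 70.1 TPM in KO and WT CD8+ cells, with KO CD8+ cells lowest. Klrb1a averaged 6.78 and 6.57 TPM in KO and WT CD4-CD8- cells and 7.11 TPM in KO CD4+ cells, values that differ by less than their SD, and 0.263 TPM or less elsewhere. Cd226 was lowest in WT CD4+ cells, followed by WT CD8+ cells, and its KO libraries of all 3 populations ranged from 9.55 to 24.5 TPM.

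**Figure D4:**
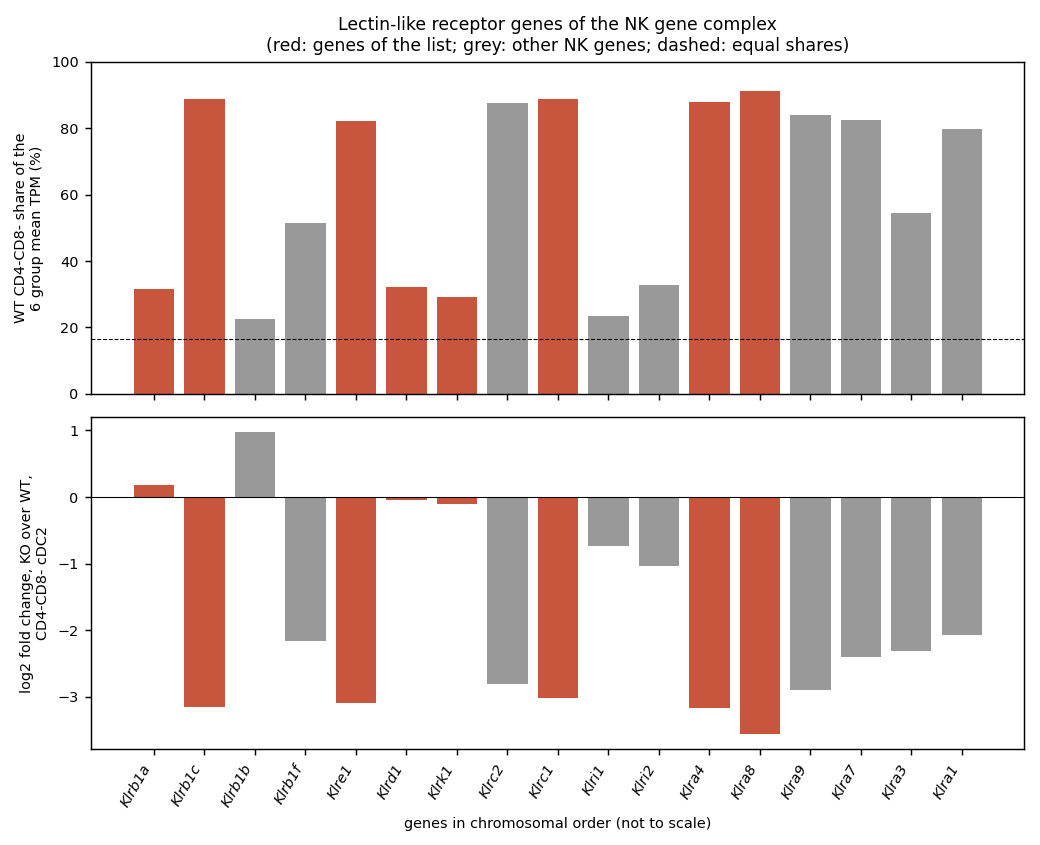
The 17 lectin-like receptor genes of the lists used here that lie in the NK gene complex, in chromosomal order (x axis, not to scale). Other genes of the complex are not shown. The upper panel gives the share of WT CD4-CD8- cells in the 6 group means (%). The lower panel gives the log2 fold change of KO over WT in CD4-CD8- cells. Klrb1a, Klrb1b, Klrd1, Klrk1, Klri1 and Klri2 have shares of 22.5% to 32.9% and lie among listed genes with shares above 50%.

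Neighbouring genes of the NK gene complex did not share one pattern. The complex lies on chromosome 6, and 17 lectin-like receptor genes of the lists used here span positions 128609227 to 130386874 of GRCm38. Klrd1 (129591782 to 129598775) and Klrk1 (129610323 to 129623864) lie between Klre1 (129577905 to 129585827) and Klrc2 (129647496 to 129660689). The WT CD4-CD8- share was 32.3% for Klrd1 and 29.2% for Klrk1, but 82.3% for Klre1 and 87.5% for Klrc2. Among the listed genes, Klrb1a, Klrb1c and Klrb1b follow each other at the start of the span with shares of 31.5%, 88.8% and 22.5%. Klri1, at 85.9 TPM in WT CD4-CD8- and 111 TPM in WT CD4+ cells on average, and Klri2 had shares of 23.6% and 32.9%. The Klra genes, at the far end, had shares of 54.4% (Klra3) to 91.3% (Klra8). Reads of near relatives may have been divided between them. Of all stretches of 59 bases, the length of a read, in the transcripts of Klrc1, 33.1% also occur in other genes, for Klra8 27.8%, Klrb1c 15.7%, Klrb1a 7.17% and Klra4 2.78%, and for the other 31 genes under 1%.

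Ratios between genes varied between libraries of the same group. The ratio of Gzma to Klre1 in TPM was 2.43, 3.17 and 1.03 in KO and 3.79, 2.55 and 0.693 in WT CD4-CD8- libraries, against 1.97, 0.117 and 1.64 in KO and 7.89, 11.3 and 0.476 in WT CD8+ libraries. The ratio of Il2rb to Klre1 was steadier, at 2.61, 1.56 and 1.77 in KO and 1.76, 1.88 and 1.40 in WT CD4-CD8- libraries. The constant regions of the TCR alpha and delta chains did not keep one ratio across populations. Trac over Trdc was 0.510, 0.340 and 0.540 in KO and 0.473, 0.520 and 0.408 in WT CD4-CD8- libraries, where Trdc was thus the higher, and 12.4, 31.1 and 7.98 in WT CD8+ libraries, where Trac was. In KO CD4+ libraries the ratio was 30.3, 41.0 and 45.9, with 22.6 Trdc counts over the group, and in WT CD4+ libraries 6.13, 7.97 and 2.25. Trac itself was at 0.852, 0.343 and 1.60 TPM in KO and 8.85, 4.73 and 8.10 TPM in WT CD4-CD8- libraries, and reached 10.6 TPM in WT CD8+ library 2. These ratios are descriptions, without a test.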

How the data were processed

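Per the submitters' processing notes, FastQC 0.11.8 and Salmon 0.14.1 were used with GRCm38. Per the labels' protocols, poly(A) RNA was sequenced as single reads of 59 bases. The authors deposited estimated counts and TPM per transcript, which were summed per gene; 152 transcripts had no gene in the table, of which GENCODE M21 gave a gene for 37; the rest, 115, held no more than 0.16% of the counts in any library and were dropped. Whether counting used strand is not given in the sources used here. Estimated counts were rounded and fitted in edgeR 4.0.16 (R 4.3.3; TMM normalisation, low-count filter, quasi-likelihood F test, all 18 libraries) with Benjamini-Hochberg adjustment over 13381 genes in each of 9 comparisons. Levels are deposited TPM. Alternatives used DESeq2 1.42.0, limma 3.58.1 on log2(TPM + 1) and log2(TPM + 0.1), no filter, the compared groups alone, a replicate block and leaving out each library. In the deviations from group means, same-numbered KO CD8+ libraries correlated with KO CD4-CD8- (r between 0.221 and 0.262) and KO CD4+ libraries (0.148 to 0.181). Differently numbered libraries were not compared, so whether the numbers mark pairs was not tested, and the labels give no pairing. KO CD4-CD8- and KO CD4+ libraries did not all reach 0.1 (0.0575 to 0.212). The code was tested on simulated data. No 2 libraries of a group were alike within sampling noise. Members and gene lists were chosen with earlier results of these data known. All 36 members are reported by role, with the called genes of largest change in full, up to 4 called genes of each other list and the 12 other genes most like the members' mean. The 50% split of the members was set after their values were seen.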

Additional observations from a re-analysis of the deposited data

Results flagged for a closer look

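The effect of ADAM10 deficiency differed between populations for the genes below, by an interaction term at an adjusted p under 0.05. Values are differences of log2 fold changes, first population minus second. The 3 sets of differences share groups, so they do not stand on their own, and no explanation was tested.

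Between CD4-CD8- and CD4+ cells the difference was -5.15 for Klrb1a, -5.01 for Skap1, -4.95 for Lat, -4.92 for Cd226, -4.71 for Bcl11b, -4.62 for Cd2, -4.61 for Themis, -4.46 for Cd3d, -4.36 for Cd3g, -3.95 for Cd247, -3.95 for Cd96, -3.70 for Lck, -3.67 for Cd3e, -3.53 for Il18rap, -3.48 for Zap70, -3.38 for Klrb1c, -2.43 for Klre1 and -1.33 for Klrk1. The NK receptors in this set included both genes near 0 in CD4+ cells, such as Klrb1c, and genes that rose there, such as Klrb1a and Klrk1.

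Between CD4-CD8- and CD8+ cells it was 1.74 for Klrd1, -2.51 for Cd226 and -1.81 for Klre1. Klrd1 was the gene of this set that fell in KO CD8+ cells and was not called in CD4-CD8- cells.

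Between CD4+ and CD8+ cells it was 9.31 for Klrb1a, 4.25 for Lat, 3.90 for Il18rap, 3.69 for Cd3g, 3.60 for Skap1, 3.51 for Cd3d, 3.38 for Themis, 3.29 for Cd2, 3.27 for Lck, 3.22 for Cd96, 3.05 for Cd247, 2.90 for Zap70, 2.40 for Cd226, 1.65 for Klrd1, 1.28 for Ccl5 and 1.09 for Klrk1. The Klrb1a value rests on 0 counts in KO CD8+ libraries, so its size depends on the prior count of the fit and is not a measured fold.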

How the results depend on the processing

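Of 191 calls of single genes over the 9 comparisons, 122 were kept under every alternative that gave a value, 69 were lost under at least 1, and 0 changed direction. For KO against WT, the 30 calls in CD4-CD8- cells ranged from 27 to 31 when each library was left out. The 10 calls in CD4+ cells became 4 with limma on log2(TPM + 1), 6 on log2(TPM + 0.1) and 4 on TPM without a filter, and ranged from 6 to 10 with a library left out. The 18 calls in CD8+ cells became 6 on log2(TPM + 1), 6 on TPM without a filter and 10 with the compared groups alone, and ranged from 6 to 22 with a library left out. For the differences between effects, the 18 calls of CD4-CD8- against CD4+ cells ranged from 11 to 18. The 3 calls of CD4-CD8- against CD8+ cells became 22 on log2(TPM + 1), 6 on log2(TPM + 0.1) and 19 on TPM without a filter, and ranged from 2 to 4. The 16 calls of CD4+ against CD8+ cells became 8 on log2(TPM + 1) and 5 on TPM without a filter, and ranged from 10 to 19. Among WT cells, the 34 calls of CD4-CD8- against CD4+ cells stayed at 34 and those against CD8+ cells ranged from 33 to 35 with a library left out, while the 28 calls of CD4+ against CD8+ cells became 15 on log2(TPM + 1) and 8 on TPM without a filter and ranged from 20 to 29. The cause of these changes was not tested. Most of the 36 genes were under 1 TPM in CD4+ and KO CD8+ libraries. On the log2(TPM + 1) scale the median of all genes shifted by -0.21, -0.12 and -0.15 for KO against WT in CD4-CD8-, CD4+ and CD8+ cells.

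The libraries of KO and WT, and of the WT populations, were not treated as pairs, since in none of these pairs of groups did all same-numbered libraries correlate above 0.1 (-0.0466 to 0.201). With the number as a replicate block, the calls in the 9 comparisons, in the order above, were 30, 10, 18, 18, 3, 16, 34, 34 and 28 without it and 31, 10, 21, 20, 3, 16, 34, 34 and 30 with it. The block ended the calls of Cd96 in CD4+ cells (adjusted p = 0.0567), Klrb1a in CD8+ cells (0.0696) and Cd2 between WT CD4+ and WT CD8+ cells (0.0511). A replicate block within the KO libraries alone, added after seeing the data, gave 19, 4 and 18 calls for the 3 differences between effects and ended none of the 18, 3 and 16 calls made without it.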

Other observations

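Genes outside the 36 were ranked for likeness to them by Pearson's r between log2(TPM + 1) of each gene and the mean log2(TPM + 1) of the 36 genes over the 18 libraries. The genes were chosen on these levels, so their values are a description with no test. The 12 highest were Gimap3 (r = 0.993), Cd160 (0.989), Gimap4 (0.985), Klra9 (0.985), Spry2 (0.982), Gimap5 (0.981), Trgc2 (0.981), Klra7 (0.981), Prkcq (0.979), Ikzf3 (0.978), Gimap7 (0.978) and Gimap1 (0.977). Gimap genes encode GTPases of lymphocyte survival, and 5 of the 12 were of this family. Gimap3 averaged 2.19 ± 1.09 TPM in KO and 16.7 ± 5.71 TPM in WT CD4-CD8- libraries (SD, n = 3 each). Trgc2, a constant region of the TCR gamma chain, averaged 2.94 ± 1.62 TPM in KO and 29.9 ± 13.1 TPM in WT libraries. Spry2, an inhibitor of receptor tyrosine kinase signalling, averaged 1.36 ± 0.459 TPM in KO and 11.1 ± 4.00 TPM in WT libraries.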
